A study of Mus musculus with 6 samples.

Results

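Expression of 10 adhesion genes of the palatal epithelium was examined in messenger RNA libraries of mouse palatal shelves. The genes were Epcam, Cdh1, Dsp, Dsg2, Dsc3, Pkp1, Pkp3, Perp, Cldn6 and Cldn7, taken by symbol from the 23366 genes listed in the count files, and all 10 were detected in every library and passed the filter on low counts. The study set wild type embryos (labelled WT, 3 libraries) against embryos of the genotype Kmt2dfl/fl Wnt1-Cre (3 libraries), all collected at E14.25. Kmt2d encodes a histone methyltransferase, and the comparison asks what changes in the palatal shelves when neural crest cells lack it. Wnt1-Cre recombines floxed alleles in the neural crest, which forms most of the palatal mesenchyme, whereas the palatal epithelium descends from other cells. The labels do not say whether the wild type embryos carried the Cre or a floxed allele, nor how many embryos went into a library.

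Epithelial cells hold together through a set of junctions. At adherens junctions the cadherin Cdh1 joins cells and ties to actin through catenins, at desmosomes the cadherins of the Dsg and Dsc families tie to keratin filaments through plakoglobin, plakophilins and desmoplakin, and at tight junctions claudins seal the space between cells. In the palate these junctions hold the epithelium over the shelves, and the epithelia of both shelves adhere and form a seam before the tissue fuses. The mesenchyme below makes little of these proteins, so in whole tissue their transcripts come largely from the epithelial covering.

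Gene counts per library ranged from 18902786 to 24916079 read pairs in 5 libraries and stood at 12721979 in knockout replicate 2. The share of its pairs assigned to no gene was 47.5%, where the remaining libraries had 12.3% to 18.1%. Its titin transcript Ttn stood at 10160 CPM (counts scaled to the normalised library size), against 66.3 to 191 CPM elsewhere. Myh3 stood at 804 CPM there against 59.1 to 193 CPM elsewhere, and Des at 40.9 CPM against 13.0 to 24.0 CPM. The muscle markers Actc1, Tnnt1, Chrna1 and Myod1 were also highest in that library. Of the 8 muscle markers listed, only the regulator Myog, at 27.5 CPM, lay within the range of the others, 20.1 to 31.4 CPM. The transcript of the targeted gene, listed as Mll2, stood at 197, 211 and 171 CPM in the wild type (replicates 2, 3 and 4, the order used throughout) and at 254, 539 and 193 CPM in the knockout (replicates 1, 2 and 3). Its log2 fold change was 0.77 (SE 0.35, edgeR quasi-likelihood test, adjusted p = 0.368), and a count over the whole gene does not check the deletion. Results are therefore given with all 6 libraries and without knockout replicate 2. The labels call the libraries biological replicates but name no litter or donor animal.

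All 10 junction genes had a lower mean in the knockout, and 0 of 10 passed the test across all genes. The log2 fold changes ran from -0.95 for Cldn7 to -0.35 for Pkp3, with a median of -0.58 against 0.011 over the 14233 genes tested. Of all genes tested, 48.5% had a negative log2 fold change, and 0.436% passed the threshold of an adjusted p of 0.05 as lower in the knockout (0.534% in either direction). By the unadjusted p of the same edgeR test, 6 of the 10 were under 0.05 and lower (Epcam, Cdh1, Dsp, Perp, Cldn6 and Cldn7), where 6.69% of all genes were. All 3 knockout libraries lay below all 3 wild type libraries in 7 of the 10 genes, a separation found in 11.2% of all genes tested. With DESeq2 1 of the 10 passed (Cdh1, adjusted p = 0.0430), where 2.28% of all genes passed as lower, and with limma voom 0 of the 10 did, where 0.358% of all genes passed as lower.

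**Figure D1:**
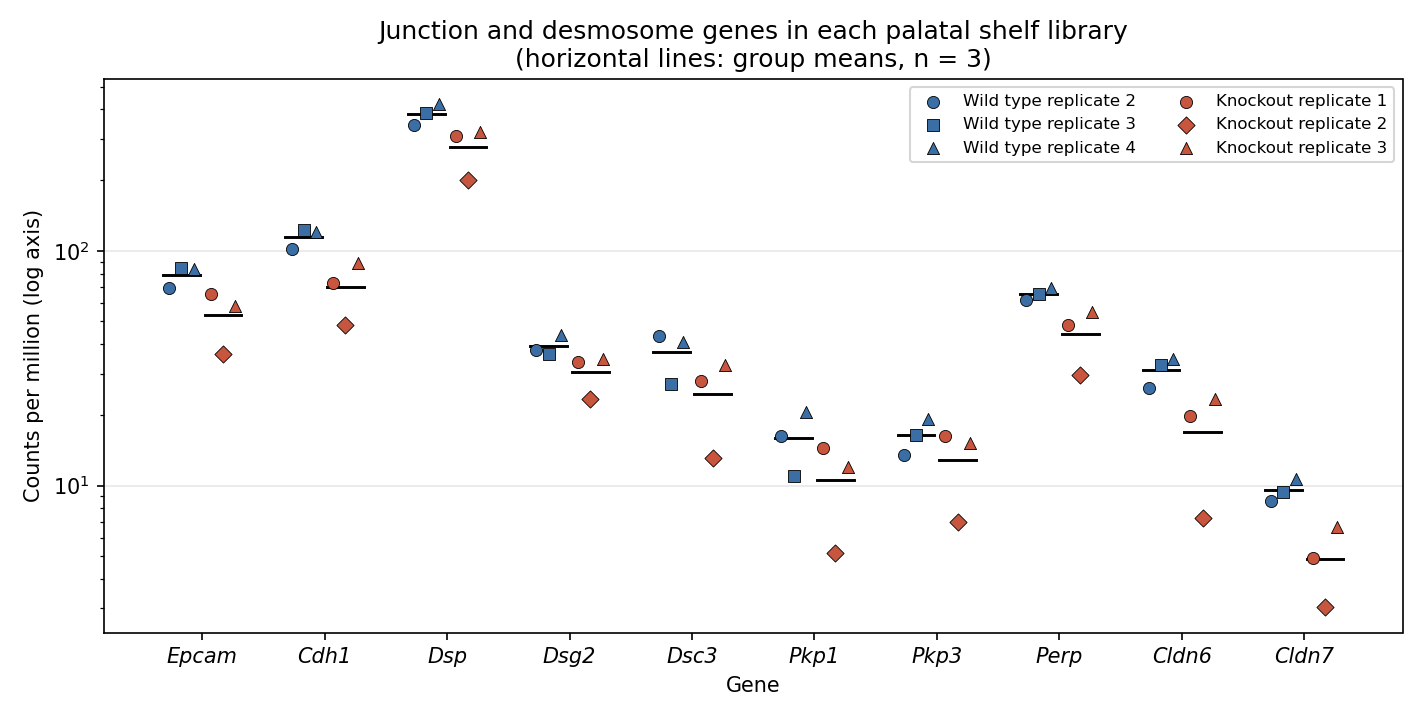
CPM of the 10 junction and desmosome genes in each library (log axis), with the mean of each group of 3 libraries as a horizontal line. Knockout replicate 2 (red diamonds) is the lowest of the 6 libraries for all 10 genes, and Dsc3, Pkp1 and Pkp3 are the 3 genes whose groups overlap.

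Knockout replicate 2 was the lowest of the 6 libraries for 10 of the 10 genes. The 10 genes together reached 722, 791 and 863 CPM in the wild type, whereas the knockout reached 612, 373 and 648 CPM. On the log2 CPM scale the median deviation of the 10 genes from their wild type means was -0.34, -1.22 and -0.31 in knockout replicates 1, 2 and 3. In the 7 genes whose groups did not overlap, knockout replicates 1 and 3 were therefore also below every wild type library. As knockout replicate 2 was lowest throughout, this restates that separation, found in 11.2% of all genes tested. The share of all genes for knockout replicates 1 and 3 alone was not counted. Knockout replicates 1 and 3 also stood apart from the wild type in library measures. The ribosomal RNA gene Rn45s took 35.1% and 30.02% of their gene counts, against 16.2% to 20.7% in the wild type and 18.6% in knockout replicate 2. Pairs that mapped to several places made up 30.3% and 27.7% of listed pairs there, against 18.1% to 20.99% in the other 4 libraries. Without Rn45s and Lars2 the median log2 fold change of the 10 genes was -0.61, and the part of RNA or library quality in these values was otherwise not tested. Without knockout replicate 2 the median log2 fold change of the 10 genes was -0.33, against 0.016 over all genes tested, and all 10 stayed negative, where 46.7% of all genes were. In that fit of 5 libraries 1 of the 10 passed, Cdh1, where 1.57% of all genes passed as lower and 2.12% in either direction. The libraries hold whole tissue, so fewer epithelial cells and less RNA per epithelial cell cannot be told apart.

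**Figure D2:**
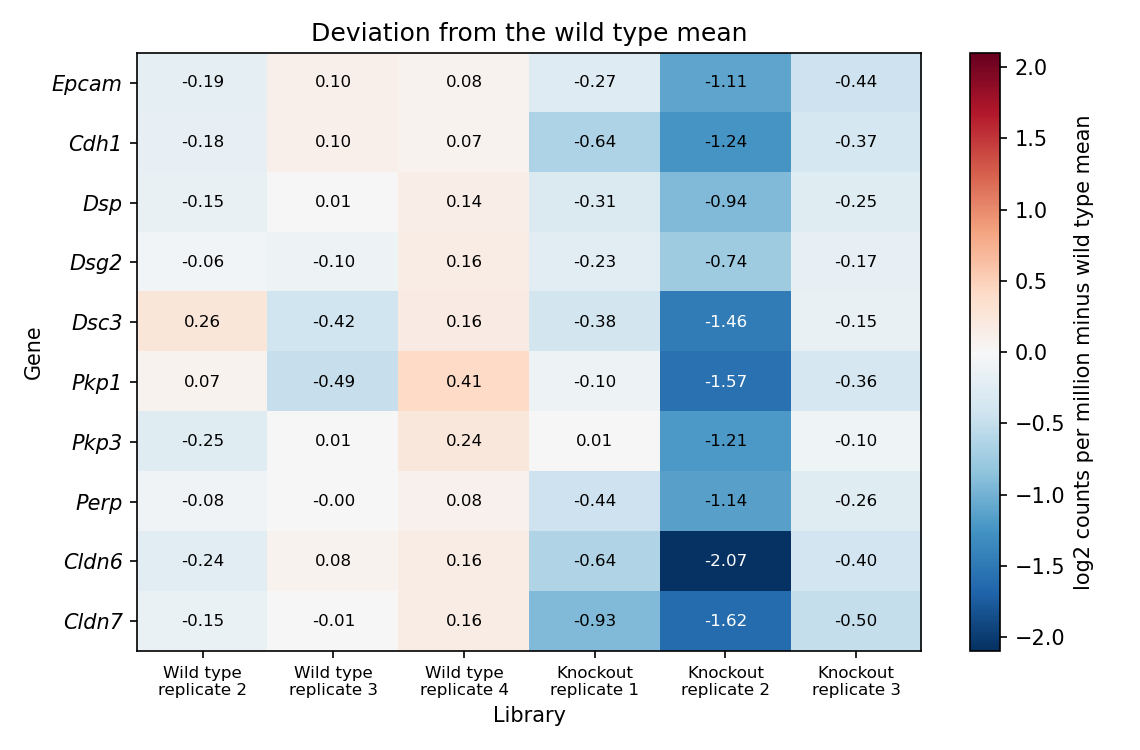
Deviation of each gene from its wild type mean in each library, in log2 CPM, with blue for lower and red for higher. The column of knockout replicate 2 runs from -2.07 for Cldn6 to -0.74 for Dsg2, and knockout replicates 1 and 3 run from -0.93 to 0.011.

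Among the adhesion receptors, Cdh1 encodes E-cadherin, the cadherin of epithelial adherens junctions. It stood at 101, 123 and 120.4 CPM in the wild type and at 73.3, 48.4 and 88.4 CPM in the knockout. The groups did not overlap, with means of 115 ± 11.8 and 70.0 ± 20.2 CPM (SD, n = 3 each) and a log2 fold change of -0.71 (SE 0.21, edgeR adjusted p = 0.248). Without knockout replicate 2 the log2 fold change was -0.52 (SE 0.11, edgeR adjusted p = 0.0484), and Cdh1 was then the gene of the 10 that passed. After correction for GC content and transcript length as well, the value was -0.47 and no longer passed (edgeR adjusted p = 0.0734).

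Epcam encodes an epithelial cell adhesion molecule that binds claudin-7 and is widely used to mark epithelia. Epcam stood at 69.3, 84.7 and 83.3 CPM in the wild type and at 65.3, 36.4 and 58.2 CPM in the knockout, in replicate order. The highest knockout library was just under the lowest wild type library. The log2 fold change was -0.57 (SE 0.21, edgeR adjusted p = 0.323), and -0.37 without knockout replicate 2 (edgeR adjusted p = 0.123).

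The 2 claudins showed the lowest log2 fold changes of the 10 genes. Cldn6, a claudin of embryonic epithelia, stood at 26.2, 32.7 and 34.6 CPM in the wild type and at 19.9, 7.27 and 23.5 CPM in the knockout. Its log2 fold change of -0.88 (SE 0.38, edgeR adjusted p = 0.351) became -0.53 without knockout replicate 2 (edgeR adjusted p = 0.0955). Cldn7, a claudin found along the sides of many epithelial cells, stood at 8.58, 9.41 and 10.6 CPM in the wild type and at 4.94, 3.03 and 6.68 CPM in the knockout. Cldn7 rested on the fewest reads of the 10 genes, 40 counts in knockout replicate 2 and 78 to 247 in the others. The log2 fold change of Cldn7 was -0.95 (SE 0.28, edgeR adjusted p = 0.248) and -0.72 without knockout replicate 2 (edgeR adjusted p = 0.111). Both claudins were lower in each knockout library than in any wild type library.

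Sequence before the start site was read for 4 of the 10 genes, those matched by symbol to RefSeq windows (GRCm38.p6). For the 10 genes, windows were by choice not taken from every chromosome, so others of the 10 may lack a window for that reason. The shares over all windows had no such limit. The 250 bases before the start were searched on both strands for the E-box CACCTG, the letters that repressors such as Snai1 and Zeb1 bind, and for AACCGGTT and its core ACCGGT, the letters bound by grainyhead-like factors such as Grhl2. The SP-type GC box GGGCGG and the TATA letters TATAAA were searched as well, and the core was added after the windows had been read. Of the windows read, only those that held an E-box are printed. Capitals mark the E-box, in either orientation (CACCTG or CAGGTG), and the core ACCGGT. The coordinates belong to the RefSeq build, not to the build of the counts.
Epcam, chr17:87635729-87635978, plus strand: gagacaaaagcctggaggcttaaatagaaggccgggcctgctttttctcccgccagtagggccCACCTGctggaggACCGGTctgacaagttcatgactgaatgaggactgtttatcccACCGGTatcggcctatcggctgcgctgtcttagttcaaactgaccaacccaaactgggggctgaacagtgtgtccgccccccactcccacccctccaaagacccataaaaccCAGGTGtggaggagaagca
Cldn6, chr17:23679115-23679364, plus strand: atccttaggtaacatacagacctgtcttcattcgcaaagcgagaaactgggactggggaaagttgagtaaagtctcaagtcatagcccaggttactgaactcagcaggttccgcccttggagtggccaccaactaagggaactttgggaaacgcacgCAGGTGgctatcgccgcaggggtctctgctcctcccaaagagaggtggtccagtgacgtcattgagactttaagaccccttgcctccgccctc
Cldn7, chr11:69965171-69965420, plus strand: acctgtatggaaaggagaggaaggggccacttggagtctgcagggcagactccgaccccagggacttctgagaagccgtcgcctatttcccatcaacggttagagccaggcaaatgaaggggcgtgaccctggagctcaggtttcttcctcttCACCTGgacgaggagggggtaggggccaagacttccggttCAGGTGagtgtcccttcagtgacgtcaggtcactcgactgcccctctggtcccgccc
Epcam held 2 E-boxes, 187 and 19 bases before the start, and 2 copies of the core. Cldn6 held 1 E-box, and Cldn7 held 2 before the start printed here and 0 before its other listed start. Dsp, the fourth gene, held 0 copies of the E-box and the core and 4 of the GC box, of which Epcam held 1, Cldn6 held 2 and the printed Cldn7 window 1. TATAAA was found before none of these starts. Of 32851 such windows over 27025 genes, 17.2% held the E-box, 32.7% the GC box, 12.4% TATAAA, 1.86% the core and 0.116% the full AACCGGTT, which none of these windows held. These matches describe the letters only.

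The desmosome is anchored by desmoplakin, encoded by Dsp, which binds keratin filaments. Dsp stood at 344, 385 and 421 CPM in the wild type and at 308, 199.7 and 322 CPM in the knockout. The groups did not overlap, and the log2 fold change was -0.47 (SE 0.19, edgeR adjusted p = 0.338), or -0.29 without knockout replicate 2 (edgeR adjusted p = 0.154). Dsg2, the desmoglein of simple and early epithelia, stood at 37.7, 36.5 and 43.7 CPM in the wild type and at 33.5, 23.4 and 34.7 CPM in the knockout. Those groups were also separate, by a narrow margin, and the log2 fold change was -0.36 (SE 0.17, edgeR adjusted p = 0.374), or -0.21 without knockout replicate 2 (edgeR adjusted p = 0.340).

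Dsc3, a desmocollin of basal cells in stratified epithelia, overlapped between the groups. Its wild type libraries stood at 43.4, 27.02 and 40.7 CPM and its knockout libraries at 27.9, 13.1 and 32.6 CPM, in replicate order. Wild type replicate 3 was below both knockout replicates 1 and 3, and the log2 fold change was -0.59 (SE 0.33, edgeR adjusted p = 0.431), or -0.30 without knockout replicate 2 (edgeR adjusted p = 0.543).

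The plakophilins link desmosomal cadherins to desmoplakin, and both measured here overlapped between the groups. Pkp1 stood at 16.3, 11.02 and 20.6 CPM in the wild type and at 14.4, 5.15 and 12.04 CPM in the knockout (log2 fold change -0.60, SE 0.38, edgeR adjusted p = 0.480). Pkp3 stood at 13.6, 16.4 and 19.2 CPM in the wild type and at 16.3, 6.96 and 15.1 CPM in the knockout (log2 fold change -0.35, SE 0.31, edgeR adjusted p = 0.606). Without knockout replicate 2 the value of Pkp1 was -0.28 (edgeR adjusted p = 0.651) and that of Pkp3 was -0.064 (edgeR adjusted p = 0.891). Pkp3 was at 0.079 when the correction for GC content and length was made too. Pkp3 was the one gene of the 10 whose sign depended on these 2 choices together.

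Perp encodes a membrane protein of desmosomes and is a target of the epithelial transcription factor p63. It stood at 61.9, 65.4 and 69.4 CPM in the wild type and at 48.3, 29.7 and 54.8 CPM in the knockout. The groups did not overlap, and the log2 fold change was -0.57 (SE 0.21, edgeR adjusted p = 0.323), or -0.36 without knockout replicate 2 (edgeR adjusted p = 0.0850). Its spread among the wild type libraries was small, with a mean of 65.5 ± 3.77 CPM (SD, n = 3).

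**Figure D3:**
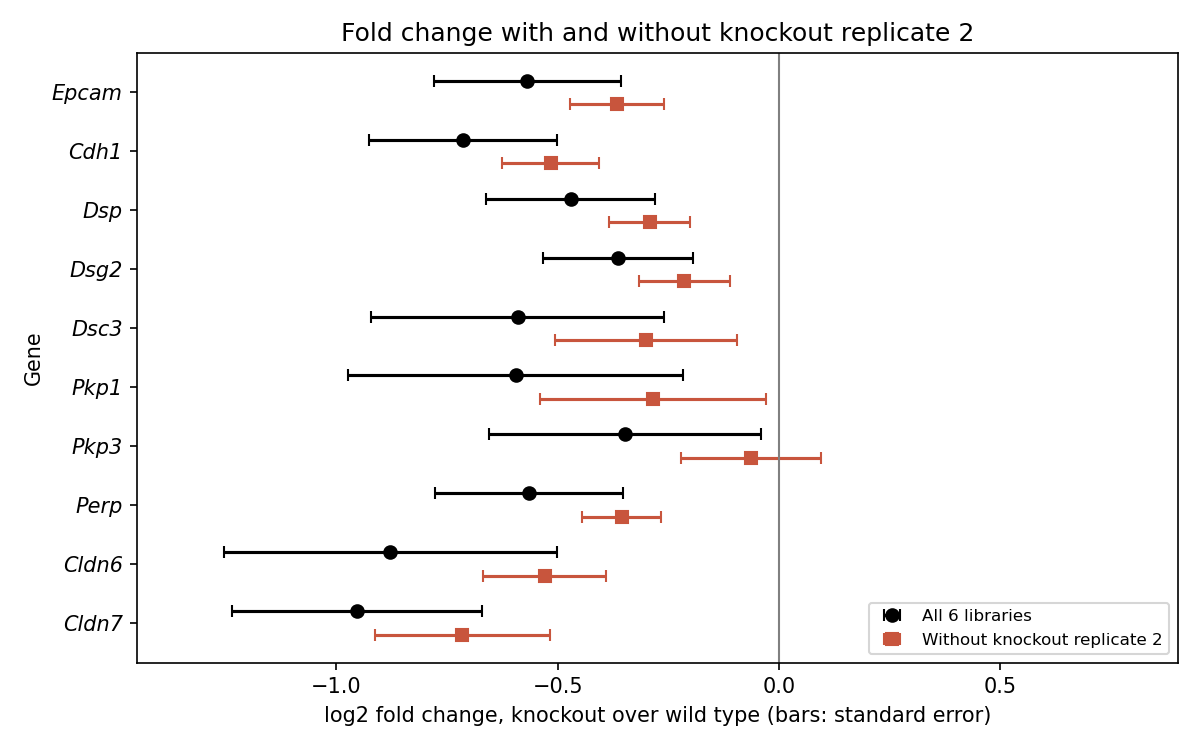
Log2 fold change of the 10 genes, knockout over wild type, with its standard error, from all 6 libraries (black circles) and without knockout replicate 2 (red squares). Every value moves toward 0 without that library, from -0.95 to -0.72 for Cldn7 and from -0.35 to -0.064 for Pkp3.

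Per kilobase of the longest listed transcript, the wild type levels spanned more than a factor of 10. Dsp stood at 39.9 ± 4.03, Epcam at 38.8 ± 4.18 and Perp at 33.6 ± 1.93 CPM per kilobase (SD, n = 3 each), followed by Cdh1 at 25.9 ± 2.67 and Cldn6 at 19.2 ± 2.72 CPM per kilobase. Cldn7 at 7.15 ± 0.775, Dsc3 at 6.95 ± 1.65 and Dsg2 at 6.81 ± 0.670 CPM per kilobase did not differ beyond their spread. Pkp3 at 5.604 ± 0.959 and Pkp1 at 3.42 ± 1.03 CPM per kilobase were the lowest. Dsp and Epcam did not differ beyond their spread either.

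Relative to Epcam in the same library, no gene of the other 9 separated the groups. The log2 ratio of Cdh1 to Epcam was 0.55, 0.54 and 0.53 in the wild type libraries, while the knockout libraries had 0.17, 0.41 and 0.60. The wild type values were nearly equal, and the knockout values lay on both sides of them. Cldn6 over Epcam stood at -1.41, -1.37 and -1.27 in the wild type and at -1.72, -2.33 and -1.31 in the knockout. Cldn7 over Epcam stood at -3.01, -3.17 and -2.97 in the wild type and at -3.73, -3.59 and -3.12 in the knockout. For both claudins knockout replicates 1 and 2 lay below the wild type range and knockout replicate 3 within it. The mean log2 ratio differed between the groups by -0.43 for Cldn6, by -0.43 for Cldn7 and by -0.15 for Cdh1, and by -0.077 to 0.23 for the other 6 genes.

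**Figure D4:**
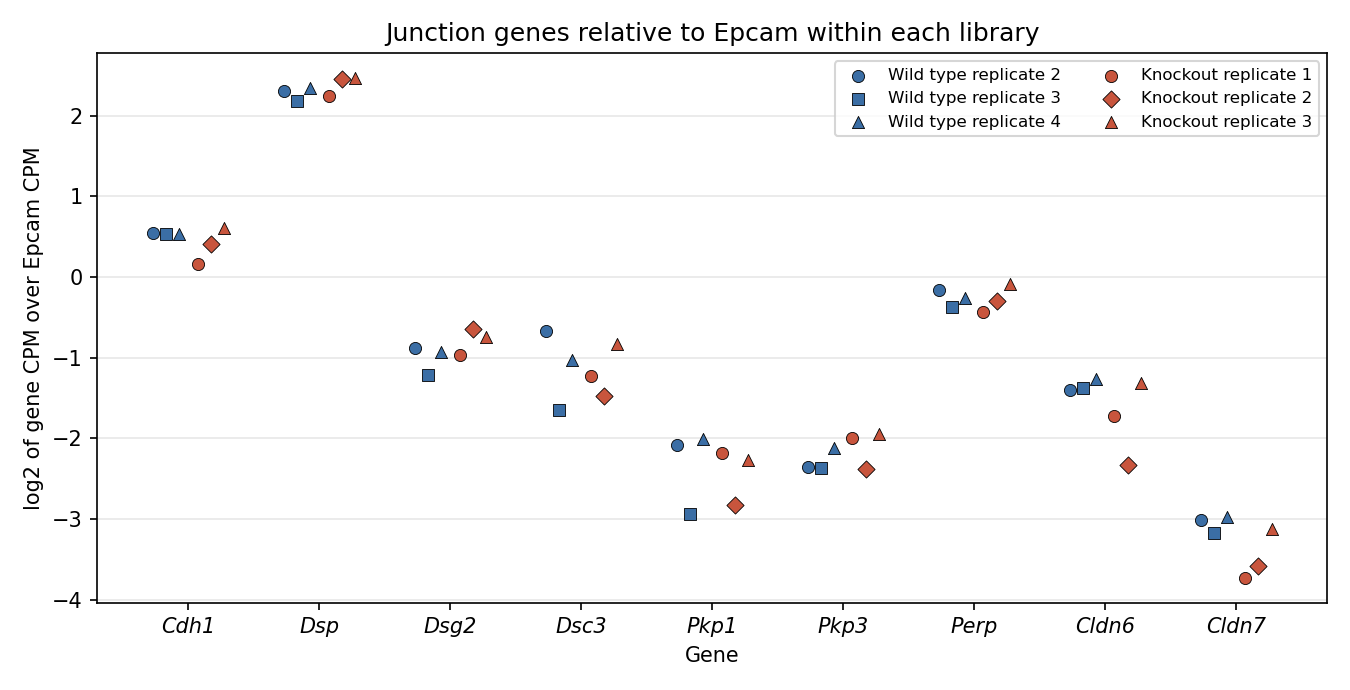
Log2 of each gene's CPM over that of Epcam in the same library, for 3 wild type (blue) and 3 knockout (red) libraries. The groups overlap for all 9 genes, and the lowest points of Cldn6 and Cldn7 are knockout libraries, at -2.33 and -3.73.

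Other desmosome genes were mostly lower in the mean too. Of 13 listed partners 9 were tested, 8 of these had negative log2 fold changes, 0 passed, and the median was -0.54 (-0.28 without knockout replicate 2). Dsc2, a desmocollin of simple epithelia, had the smallest p and stood at 46.3 ± 1.46 and 29.4 ± 7.76 CPM in wild type and knockout (SD, n = 3 each; edgeR adjusted p = 0.248). Without knockout replicate 2 its log2 fold change was -0.46, which passed (edgeR adjusted p = 0.0245). Jup, or plakoglobin, had a log2 fold change of -0.43 (SE 0.17) and Pkp2 one of -1.01 (SE 0.41), at 2.98 ± 0.868 and 1.45 ± 0.668 CPM (SD, n = 3 each), and neither passed (edgeR adjusted p = 0.327 and 0.341). Jup was at -0.28 on the log2 scale without knockout replicate 2.

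Partners of the adherens junction, several of which are made by most cell types, lay nearer to 0. Of 10 tested, 7 were negative, 0 passed and the median was -0.13 (-0.075 without knockout replicate 2). Cdh3, the P-cadherin of basal epithelial cells, stood at 52.1, 53.9 and 64.1 CPM in the wild type and at 35.2, 34.7 and 45.9 CPM in the knockout (log2 fold change -0.55, SE 0.15, edgeR adjusted p = 0.210). Knockout replicate 2 did not stand apart for Cdh3, which was -0.49 without it. The catenin genes, which tie cadherins to actin, had log2 fold changes of -0.16 for Ctnna1, -0.21 for Ctnnb1 and 0.050 for Ctnnd1 (edgeR adjusted p = 0.505, 0.582 and 0.823). These were -0.095, -0.055 and 0.0055 without knockout replicate 2.

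Of 18 tight junction partners tested, 16 were negative, 0 passed and the median was -0.67 (-0.51 without knockout replicate 2). Marveld3, a tight junction membrane protein, had the smallest p, at 2.42, 3.14 and 2.88 CPM in the wild type and 1.27, 1.14 and 1.22 CPM in the knockout (log2 fold change -1.21, SE 0.27, edgeR adjusted p = 0.148). Its 3 knockout libraries were nearly equal. The claudins Cldn3 and Cldn4 had log2 fold changes of -1.16 (SE 0.31) and -0.88 (SE 0.34), and occludin, Ocln, one of -0.82 (SE 0.37), with edgeR adjusted p = 0.216, 0.331 and 0.368. Cldn4 was at -0.56 and Ocln at -0.50 on the log2 scale without knockout replicate 2. The scaffold gene Tjp1 was at 0.019 (-0.10 without knockout replicate 2) and the adhesion gene F11r at -0.24 (-0.082 without it) on the same log2 scale (edgeR adjusted p = 0.954 and 0.558).

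Genes that bind the epithelium to its basement membrane had a median log2 fold change of -0.28, with 11 of 12 negative and 0 past the threshold, and one of -0.16 with 10 of 12 negative without knockout replicate 2. The integrin genes of the hemidesmosome stood at -0.21 for Itga6 and -0.37 for Itgb4 (edgeR adjusted p = 0.426 and 0.394), or -0.14 and -0.22 without knockout replicate 2. A list of membrane proteases and their inhibitors held St14, which encodes the epithelial protease matriptase, Prss8, which encodes the protease prostasin, and the inhibitor genes Spint1 and Spint2, and 4 of 4 were negative with 0 past the threshold. St14 had a log2 fold change of -0.67 (SE 0.21, edgeR adjusted p = 0.274) and the inhibitor gene Spint1 one of -0.57 (SE 0.26, edgeR adjusted p = 0.367), or -0.47 and -0.36 without knockout replicate 2.

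**Figure D5:**
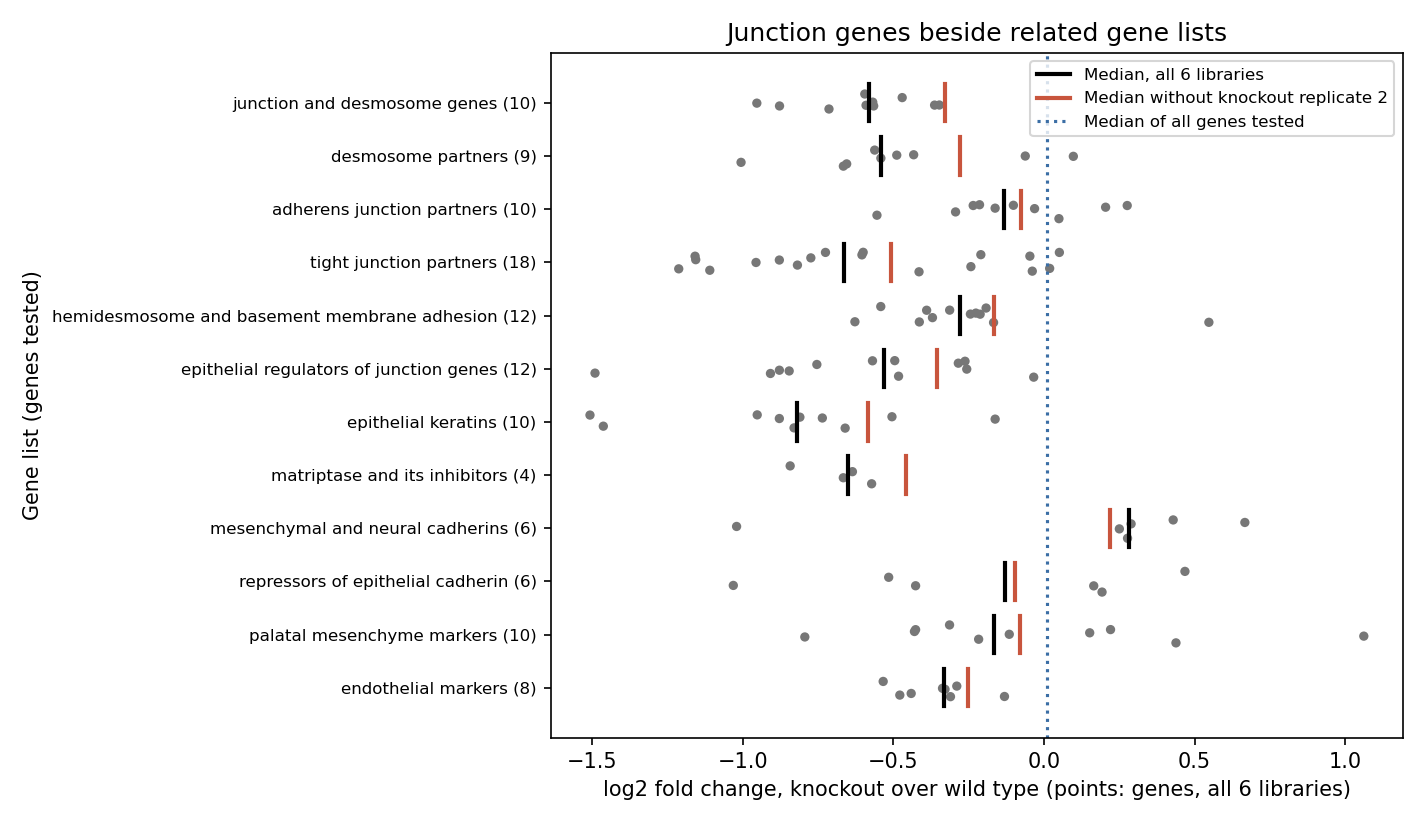
Log2 fold change, knockout over wild type, of each tested gene in 12 lists (grey points, all 6 libraries), with list medians from all 6 libraries (black) and without knockout replicate 2 (red). The junction and desmosome genes have a median of -0.58, the mesenchymal and neural cadherins one of 0.28, and all genes tested one of 0.011 (dotted line).

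Among the epithelial regulators, 12 of 12 were negative and 0 passed, with a median of -0.53. Without knockout replicate 2 the median was -0.35 and 11 of 12 were negative. The basal factor Trp63 lay nearest to 0 of the regulators named. Trp63, which encodes p63, stood at 65.0, 64.7 and 78.7 CPM in the wild type and at 64.2, 60.2 and 79.1 CPM in the knockout (log2 fold change -0.034, SE 0.14, edgeR adjusted p = 0.925), and its value was 0.036 without knockout replicate 2. Knockout replicate 2 was only slightly below the wild type for this gene. Grhl2, a grainyhead-like factor of epithelia, had a log2 fold change of -0.28 (SE 0.15, edgeR adjusted p = 0.400), or -0.17 without knockout replicate 2. Ehf, an ETS factor of epithelia, had the smallest p, at 33.0, 43.0 and 30.1 CPM in the wild type and 19.9, 20.1 and 16.6 CPM in the knockout (log2 fold change -0.91, SE 0.16, edgeR adjusted p = 0.0825). Ehf passed without knockout replicate 2 (edgeR adjusted p = 0.0242), a library that was not its lowest.

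The keratins, whose filaments attach to desmosomes, were negative in 10 of 10 tested genes, with 0 past the threshold and a median of -0.82 (-0.58 without knockout replicate 2). Krt15, of basal cells, had the smallest p, with 85.7, 109 and 83.9 CPM in the wild type and 36.2, 20.9 and 43.7 CPM in the knockout (log2 fold change -1.46, SE 0.26, edgeR adjusted p = 0.0771). Krt15, Krt18 and Krt19 passed without knockout replicate 2 (edgeR adjusted p = 0.00410, 0.0472 and 0.0275). The basal keratins Krt5 and Krt14 had log2 fold changes of -0.66 (SE 0.31, or -0.39 without knockout replicate 2) and -0.16 (SE 0.29), and the simple keratins Krt8 and Krt18 ones of -0.81 (SE 0.24) and -0.83 (SE 0.26). Krt14 stood at 119 and 116 CPM in knockout replicates 1 and 3, within the wild type range of 92.8 to 124 CPM, and at 52.7 CPM in knockout replicate 2, without which its log2 fold change was 0.12.

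Cadherins of mesenchyme and nerve had higher means in 5 of 6 genes, with 0 past the threshold. Cdh2, or N-cadherin, stood at 135, 132 and 122 CPM in the wild type and at 159.6, 184 and 180.3 CPM in the knockout, so that its groups were separate in the direction opposite to Cdh1. The log2 fold change of Cdh2 was 0.43 (SE 0.10, edgeR adjusted p = 0.172) and 0.38 without knockout replicate 2, which passed (edgeR adjusted p = 0.0476). Cdh11, the main cadherin of mesenchyme, had one of 0.28 (SE 0.11, edgeR adjusted p = 0.336). The one cadherin of this list with a lower mean was Cdh4, or R-cadherin, at 46.2, 28.4 and 37.02 CPM in the wild type and at 11.6, 21.1 and 22.3 CPM in the knockout. Its groups did not overlap, and its log2 fold change was -1.02 (SE 0.27, edgeR adjusted p = 0.214). Of the 6 repressors of Cdh1 listed, 3 were positive and 3 negative, and Twist2, with the smallest p, had a log2 fold change of -1.03 (SE 0.41, edgeR adjusted p = 0.333).

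Of the markers of other cells in the tissue, 1 gene passed the test, the nasal marker Bpifa1. The summed levels of the endothelial and leukocyte markers did not overlap between the groups, and their part in the values of the junction genes was not tested. The 8 endothelial markers summed to 281 to 310 CPM in the wild type and to 217 to 253 CPM in the knockout, and 8 of 8 were negative (Esam, smallest p, log2 fold change -0.53, edgeR adjusted p = 0.260). The 8 leukocyte markers summed to 54.9 to 63.3 CPM in the wild type and to 38.0 to 43.2 CPM in the knockout (Mrc1, log2 fold change -1.04, edgeR adjusted p = 0.0528). The sums of the 10 palatal mesenchyme markers overlapped, at 6192 to 7206 CPM in the wild type and 5394 to 6386 CPM in the knockout, with 6 of 10 negative (Prrx2, -0.79, edgeR adjusted p = 0.170). Skeletal muscle markers summed to 264 to 618 CPM in 5 libraries and to 11330 CPM in knockout replicate 2, most of it from Ttn. All the other listed muscle markers except Myog were also highest in that library. With all 6 libraries 1 of 8 muscle markers was negative (median 0.23). Without knockout replicate 2, 7 of 8 were negative (median -0.42). Nerve and Schwann markers were mixed in sign with all 6 libraries, with Syt1 at 0.66 on the log2 scale (edgeR adjusted p = 0.255). Erythroid markers were mixed too, with Hbb-b1 at -1.07 (edgeR adjusted p = 0.389). Of 8 neuron markers 2 were negative (median 0.084), but 7 were without knockout replicate 2 (median -0.24). Without that library the medians were -0.29 for Schwann and melanoblast, 0.10 for erythroid and -0.25 for endothelial markers. Those of the leukocyte and palatal mesenchyme markers were then -0.41 and -0.079. Of other epithelia, 3 of 4 dental markers tested were positive with 0 past the threshold. All 3 nasal and airway markers tested were negative, at a median log2 fold change of -2.19 (-2.33 without knockout replicate 2). Of these Bpifa1 passed, going from 2.71, 2.06 and 1.64 CPM to 0.063, 0 and 0 CPM (edgeR adjusted p = 0.0195). Foxj1 and Cyp2f2 had log2 fold changes of -1.78 and -2.19 and did not pass (edgeR adjusted p = 0.240 and 0.317). Scgb1a1, Amelx and Hba-a1 had 0 counts in all 6 libraries.

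By likeness of pattern, the closest genes outside the 10 were ones made by many cell types. The measure was the Pearson correlation over the 6 libraries between log2 CPM and the mean of the centred values of the 10 genes, among 11113 genes with a mean of at least 5 CPM. Ap2a2, a subunit of the clathrin adaptor, had 0.998, followed by the actin-binding gene Pfn1, the interferon-gamma receptor gene Ifngr2, the Wnt receptor gene Fzd2, Ube2g2 and Ddost, each at 0.997 or 0.998. Ap2a2 stood at 126, 128 and 133 CPM in the wild type and at 119, 95.2 and 120.4 CPM in the knockout, so it had the same order of libraries over a smaller range. A correlation of 0.95 or more was reached by 571 of these genes (5.14%), and the low value of knockout replicate 2 is shared by all of them that are named here. When that library was left out, the first gene by the same measure was Elf5, an ETS factor of epithelia, at a log2 fold change of -0.83 with all 6 libraries (SE 0.27, edgeR adjusted p = 0.285).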

How the data were processed

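Messenger RNA of dissected palatal shelves was sequenced as paired 25 bp reads from 3 wild type and 3 knockout libraries, grouped and numbered by the sample titles. Each deposited file lists, per symbol, how many read pairs the authors assigned to the gene, as counts without scaling. The submitters' processing notes name TopHat2, SAMtools, HTSeq and mm9. For annotation and strandedness the setting is not given in the sources used here, so overlapping genes may have exchanged reads. The 5 category lines, 33.6% to 65.8% of listed pairs, stayed out of library sizes and tests.

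After filterByExpr (14233 genes kept) and TMM scaling, wild type and knockout entered the robust quasi-likelihood test of edgeR 4.0.16 in R 4.3.3, with no covariate. P-values were adjusted by Benjamini-Hochberg over all genes tested at 0.05. CPM are counts over the normalised library size, and log2 CPM used a prior count of 2. The fit was tested on simulated data. Alternatives were other size factors, DESeq2 1.42.0, limma 3.58.1 voom with and without quality weights, other filters, leaving out Rn45s and Lars2 or each library, and the replicate number as a block. A correction for GC content and length within libraries (99.3% of tested genes had both, from GENCODE M21 transcripts) and the likeness without knockout replicate 2 were added after seeing the data. Same-group libraries differed beyond sampling noise (chi-square per degree of freedom 11.5 to 163), so none was taken for a library deposited again.

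The 10 genes and all lists were chosen with earlier results of these data known. Named were the 10 genes, a set of partner and comparator genes, per list at most 4 genes that passed, or the gene of smallest p where none did, and the 6 genes most alike in pattern. Krt19, Elf5, Cdh4, Spint2, Prss8, Foxj1, Cyp2f2 and the genes at 0 counts were named after their values were seen. The same holds for the muscle genes Ttn, Myog, Myh3, Des, Actc1, Tnnt1, Chrna1 and Myod1. Some genes that this rule names are not reported here.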

Additional observations from a re-analysis of the deposited data

How the results depend on the processing

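All 10 junction genes kept a negative log2 fold change in each of the 16 alternatives (160 values), and 156 of the 160 stayed on the same side of the threshold. The other 4 passed it, Cdh1 with DESeq2, with voom quality weights and without knockout replicate 2, and Cldn6 with the replicate number as a block. The median of the 10 genes lay between -0.73 (with the replicate block, and also without knockout replicate 3) and -0.33 (without knockout replicate 2). Over all genes, 76 passed and 62 of these were lower. DESeq2 gave 486 with 325 lower and voom with quality weights gave 316 with 206 lower, each with 1 of the 10 genes, and no filter gave 94 lower. With single libraries left out, 0 to 307 genes passed, 0 to 227 of them lower, and 0 to 1 of the 10. The 0 came without wild type replicate 2 or 3 (edgeR, with 1103 and 1117 at an unadjusted p under 0.05), while 3 passed without wild type replicate 4, 20 without knockout replicate 1 and 11 without knockout replicate 3. The cause of these shifts was not tested. The replicate block gave 301 genes, 196 lower, with 1 of the 10 genes (Cldn6, adjusted p = 0.00712). Only the numbers 2 and 3 occur in both groups, and deviations from the group means correlated at 0.21 and -0.14 for these pairs, so the numbers are not shown to pair the samples. Depth limits Cldn7 and Pkp1 most, with 40 and 68 counts in knockout replicate 2.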
